A study of Mus musculus with 8 samples.

Results

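The enteric nervous system genes described here are 31 genes that mark neurons or glial cells of the gut wall, out of 39179 genes in a count table of wild-type mouse intestine and Apc adenomas. They were chosen by name from known markers of these cells, with earlier results of these data known. Their Ensembl identifiers were paired with symbols through GENCODE release M21. Of the 31, 30 were matched to a row of the table and Slc18a3 was not analysed here. A total of 26 passed the filter on low counts and were tested, and Chat, Nefm, Phox2a and Foxd3 fell below it. RNA was sequenced from 3 wild-type samples labelled small intestine (VilCreER+) and 5 samples labelled small intestinal adenoma (VilCreER+ APCfl/+). All came from mice on an inbred C57BL6/J background whose tissue had undergone tamoxifen-induced recombination in vivo. Both groups carried VilCreER, in which the promoter of villin, a gene of gut epithelium, drives a Cre recombinase that tamoxifen switches on. Adenoma mice had in addition 1 floxed and 1 normal allele of Apc, a brake on Wnt signalling. The series' design text describes the adenoma mice as aged and the wild-type tissue as whole intestine. Ages in numbers and doses are not in the labels, which also do not tie libraries to individual mice. The p-values therefore speak of the spread between these samples alone, and that spread may be technical in part or, in wild type, in whole. Adenoma 1 differed from adenomas 2 to 5 in its sex-linked genes (below), so the adenomas were not all from the same mouse.

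The enteric nervous system is built from neural crest cells that migrate into the gut. Their survival and spread depend on GDNF, which acts through the receptor tyrosine kinase RET and its coreceptor GFRA1, and on endothelin 3, which acts through EDNRB. Their cell bodies lie in a plexus between the muscle layers and in another beneath the mucosa, while fibres and glial processes reach the villi. Neurons release acetylcholine, nitric oxide and peptides such as VIP, and enteric glia wrap the ganglia and are recognised by SOX10, S100B and GFAP. In RNA from whole tissue, fewer cells of a type and less RNA per cell cannot be told apart.

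Libraries held 18040301 to 28343915 counts, so that 1 count equalled 0.0339 to 0.0557 CPM, where CPM is the count scaled to 1000000 counts after scaling of library sizes by TMM. Many members lay near 1 CPM, and their precision is set by few counts per library. Apc itself was at 191 to 211 CPM in wild type and at 132 to 159 CPM in the adenomas, lower in each of them. Some libraries stood apart. All 3 wild-type libraries and adenoma 1 had the male pattern of Y-linked Ddx3y, at 70.6 to 77.5 CPM, whereas adenomas 2 to 5 had Xist at 432 to 761 CPM and Ddx3y at 0.0939 CPM at most. Adenoma 2 held the hindgut gene Hoxb13 at 245.5 CPM, against 0.894 CPM at most elsewhere, and Gata4 of the upper small intestine at 0.470 CPM, against 68.4 to 84.4 CPM in the other adenomas. These values go against the small intestinal label of adenoma 2, which is nonetheless kept in the adenoma group. Pnlip, a gene of pancreatic acini, was high in wild type 1 (190.04 CPM) and adenoma 5 (63.5 CPM), whereas the other libraries had 0.798 CPM or less. Upk3b of the outer mesothelial lining was at 4.99 and 4.58 CPM in wild type 1 and 3 but at 0.167 CPM in wild type 2. The genes named for these libraries were picked with their values known.

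Of the 26 members tested, 12 fell and 3 rose in adenoma, and 11 did not pass. The threshold was a p of 0.05 from edgeR's quasi-likelihood test, adjusted by Benjamini-Hochberg over the 18345 genes tested. Elavl4, Prph, Snap25, Syt1, Vip, Nmu, Calb2, L1cam, Ncam1, Sox10, Gfap and Cdh19 were lower, and Nefl, Penk and Ret were higher. Over all genes tested, 58.1% were called, so the share of members called, 57.7%, lay at the background. By direction, 46.2% of the members were lower against 27.8% of all genes, and 11.5% were higher against 30.3%. As the members were chosen with earlier results known, these shares only describe the list. The median log2 fold change was -0.58 over the tested members and 0.04 over all genes. Groups did not overlap for 11 members with adenoma below, where 27.6% of all genes do this, and for 2 with adenoma above, where 29.3% do. A test against a factor of 2 (glmTreat) called Nmu, Calb2, Gfap and Cdh19 lower, or 4 of 26 members against 7.52% of all genes. For the 3 members called higher its adjusted p was 0.0920 for Penk, 0.106 for Nefl and 0.660 for Ret, and it called 5.66% of all genes higher.

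**Figure D1:**
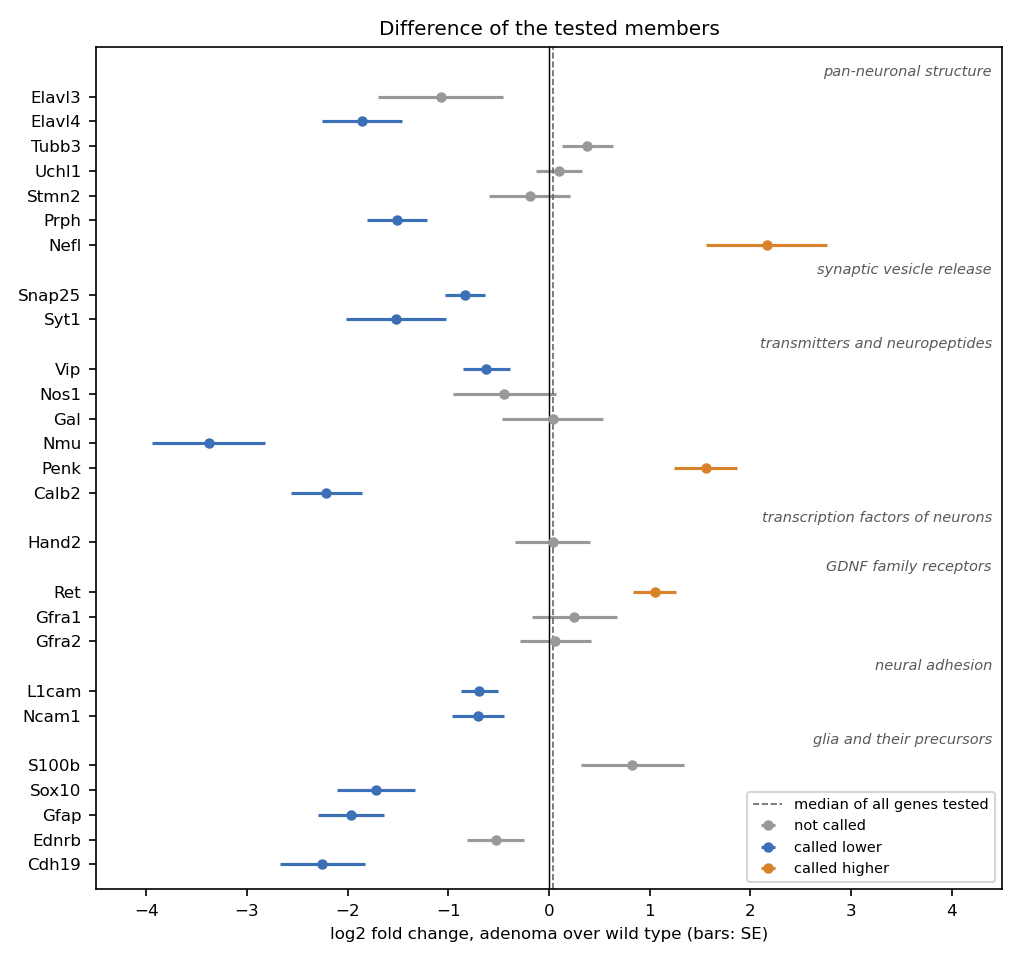
Log2 fold change of adenoma over wild type for the 26 tested members, grouped by role on the vertical axis, with bars of 1 SE and the dashed line at the median of all genes tested (0.04). The 12 members called lower run from -3.38 for Nmu to -0.63 for Vip, and the 3 called higher are Nefl, Penk and Ret. Scaling by pan-epithelial genes lowers the values and moves the median of all genes to -0.75. It takes the calls of Penk and Ret away and gives calls lower for Uchl1 and Ednrb.

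How many calls were lower depended on the scaling. When the sum of 12 pan-epithelial genes was made equal in every library, all genes tested had a median log2 fold change of -0.75, and 9.68% of all calls were higher against 52.2% under TMM. Under that scaling 14 members (53.8%) were lower, a share that no longer exceeded that of all genes (56.6%). The median log2 fold change of the members was -1.42 there, still below the -0.75 of all genes. Nefl was the 1 member called higher, where 6.06% of all genes were, with Ret at 0.29, which is above the median of all genes by about as much as before. With the pattern of Xist and Y-linked genes as a covariate, where adenoma 1 alone is compared with wild type, 5 members (19.2%) were lower, namely Elavl4, Prph, Snap25, Calb2 and Sox10, against 12.5% of all genes. Penk was higher under this fit, as were 16.8% of all genes. Group and sex pattern cannot be told apart beyond that 1 library.

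Promoter sequence is shown for 4 members that fell and that represent the peptides, the neuronal filaments and the glial filaments. These are the 250 bases before the RefSeq transcript start on GRCm38.p6, read 5′ to 3′ on the strand of the gene, with capitals for matches on either strand to TGACG, the core of the cAMP response element, to TATAAA, the TATA box, and to CCAAT.
Vip (chr10:5638968-5639217, plus strand): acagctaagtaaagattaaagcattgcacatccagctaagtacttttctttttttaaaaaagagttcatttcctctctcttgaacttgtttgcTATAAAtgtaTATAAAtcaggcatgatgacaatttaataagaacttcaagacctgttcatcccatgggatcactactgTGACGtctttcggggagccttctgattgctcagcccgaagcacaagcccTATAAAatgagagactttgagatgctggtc
Nmu (chr5:76363778-76364027, minus strand): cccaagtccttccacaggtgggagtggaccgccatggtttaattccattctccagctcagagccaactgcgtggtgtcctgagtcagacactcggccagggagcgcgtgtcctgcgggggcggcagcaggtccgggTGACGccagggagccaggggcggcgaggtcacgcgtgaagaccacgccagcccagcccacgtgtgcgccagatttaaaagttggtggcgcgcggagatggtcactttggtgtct
Prph (chr15:99054924-99055173, plus strand): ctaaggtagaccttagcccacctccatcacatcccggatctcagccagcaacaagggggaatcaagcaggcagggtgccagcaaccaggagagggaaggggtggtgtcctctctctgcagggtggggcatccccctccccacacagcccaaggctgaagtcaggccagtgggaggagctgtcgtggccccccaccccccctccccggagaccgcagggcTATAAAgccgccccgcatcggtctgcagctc
Gfap (chr11:102897201-102897450, minus strand): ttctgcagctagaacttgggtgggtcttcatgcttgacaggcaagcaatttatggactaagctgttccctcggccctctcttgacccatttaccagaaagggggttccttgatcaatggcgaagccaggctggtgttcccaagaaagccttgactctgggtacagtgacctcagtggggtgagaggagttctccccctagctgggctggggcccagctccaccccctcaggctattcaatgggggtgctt
The Vip promoter held TGACG with its first base 79 bases before the start and TATAAA at 157, 147 and 30 bases. The Prph promoter held TATAAA at 31 bases, and Nmu had TGACG at 114 bases. Bases soon after the Nmu start were not found in a GENCODE transcript of Nmu. The stretch shown also overlaps the annotated gene, which reaches base 76363788. None of the 3 strings was found in the 250 bases of Gfap, which lie in an intron of a longer Gfap transcript in GENCODE. RefSeq promoters were matched for 20 of the 31 members. TGACG was found for 9 of these 20, and in 17.8% of all 32851 promoters, TATAAA for 3 and in 12.4%, and CCAAT for 11 and in 33.8%. Members with several listed starts were counted once if any start had a match, so these shares are not on equal terms. Counted per promoter, TGACG was in 11 of 25 member promoters, TATAAA in 3 and CCAAT in 13, though some starts of Elavl4 and L1cam share bases. The 9 genes with TGACG include Slc18a3, whose expression was not analysed.

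Among glial genes, 3 fell by a factor of more than 3 while S100b, Ednrb and Foxd3 did not pass the test or the filter. The share lower was 60% of the 5 tested, against 27.8% of all genes. Sox10 (ENSMUSG00000033006, chromosome 15, 79154908 to 79165240, minus strand), the transcription factor that specifies glia and their precursors, stood at 1.22, 1.28 and 0.982 CPM in wild type 1 to 3 and at 0.1398, 0.4695, 0.581, 0.259 and 0.305 CPM in adenomas 1 to 5. All adenomas lay below all wild-type libraries, and adenoma 1 was the lowest. The log2 fold change was -1.72 ± 0.39 (adjusted p = 0.00514). Gfap (ENSMUSG00000020932, chromosome 11, 102887336 to 102900912, minus strand), the intermediate filament of glia, was at 1.27, 1.11 and 1.2 CPM in wild type and at 0.326, 0.141, 0.223, 0.432 and 0.372 CPM in the adenomas. Its wild-type values were close together and every adenoma was at 0.432 CPM or less, a log2 fold change of -1.96 ± 0.33 (adjusted p = 0.00115). Cdh19 (ENSMUSG00000047216, chromosome 1, 110888326 to 110977584, minus strand), a cadherin of neural crest-derived glia, showed the most even wild-type values of this group. It was at 2.04, 2.01 and 1.96 CPM in wild type and at 0.419, 0.704, 0.402, 0.0865 and 0.474 CPM in the adenomas, with adenoma 4 lowest, and fell by 2.25 on the log2 scale (SE 0.42, adjusted p = 0.00211). The calls of Sox10, Gfap and Cdh19 held with any 1 library left out, with adjusted p of at most 0.0227, 0.00667 and 0.00978.

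The other glial members were not called. S100b, a calcium-binding protein of glia, was at 1.48, 1.06 and 0.928 CPM in wild type and at 1.82, 0.798, 1.39, 1.902 and 4.299 CPM in the adenomas. Adenoma 5 was the highest and adenoma 2 the lowest, so the groups overlapped (log2 fold change 0.83 ± 0.51, adjusted p = 0.191). Ednrb, the endothelin receptor of migrating crest cells, which blood vessel and stromal cells also make, was the most abundant member per length of transcript. It stood at 41.96, 54.3 and 46.8 CPM in wild type and at 34.5, 15.6, 44.8, 37.7 and 32.7 CPM in the adenomas (log2 fold change -0.53 ± 0.28, adjusted p = 0.1398). Adenoma 2 had the lowest value, and without it the log2 fold change was -0.36 with an adjusted p of 0.0314. Ednrb was also called lower under pan-epithelial scaling, at -1.40 (adjusted p = 0.000263). Foxd3, a transcription factor of early crest cells, had 17 counts over wild type and 36 over the adenomas, or 0.255, 0.446 and 0.218 CPM against 0.373, 0.141, 0.402, 0.303 and 0.305 CPM, with overlap.

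**Figure D2:**
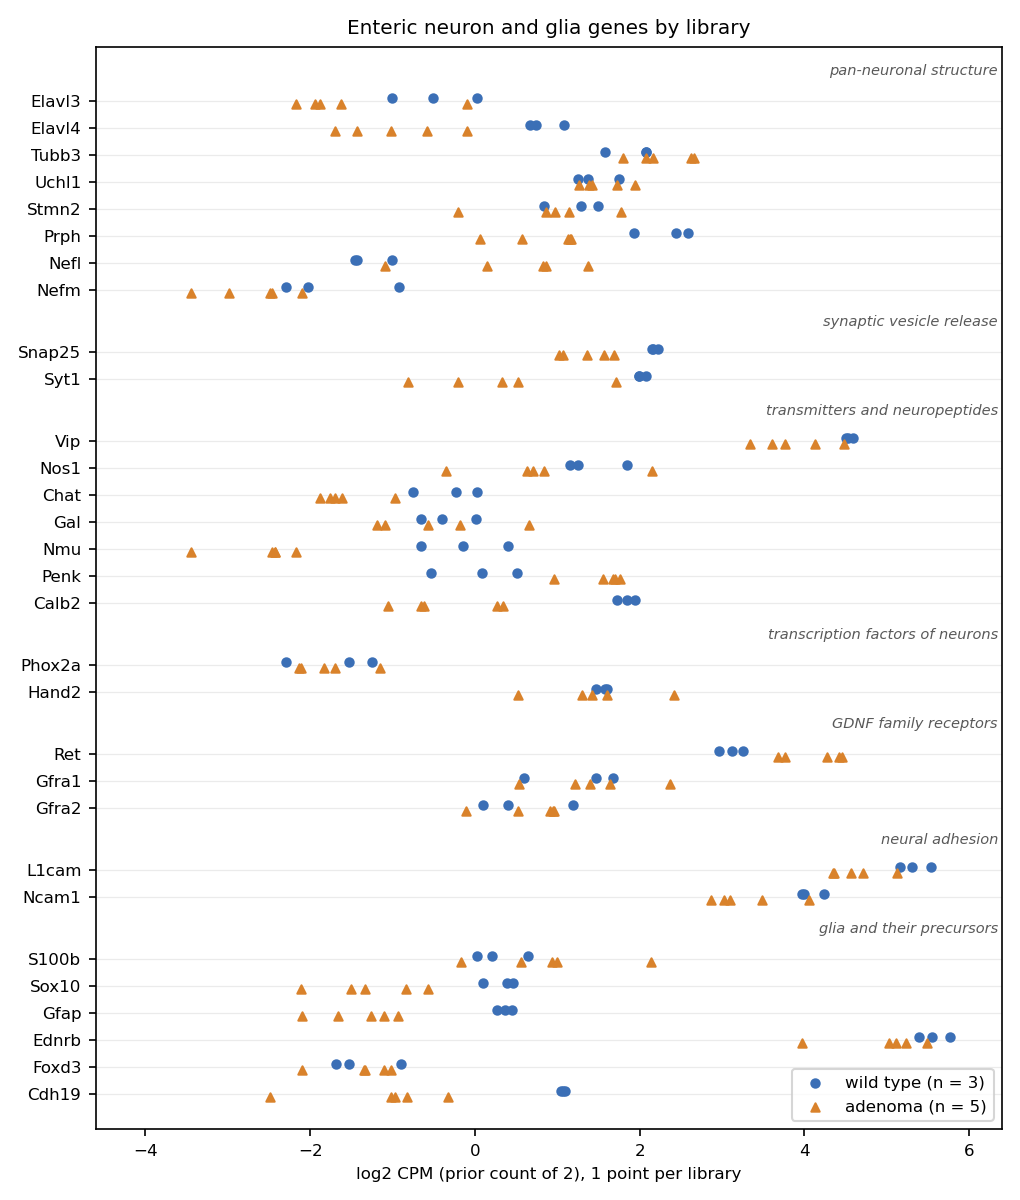
Level of each of the 30 members in the table, as log2 CPM with a prior count of 2 on the horizontal axis, with 1 point per library and members grouped by role. Gfap, Cdh19, Calb2, Nmu and Prph show adenomas apart from and below wild type, Ret and Penk show them above, and Tubb3, Uchl1, Gal and Gfra2 overlap.

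Structural genes of neurons split, with Elavl4 and Prph lower, Nefl higher and 4 of 7 tested not called. The share lower, 28.6%, lay at the 27.8% of all genes, and 14.3% were higher against 30.3%. Elavl4 (ENSMUSG00000028546, chromosome 4, 110203722 to 110351909, minus strand) encodes the neuronal RNA-binding protein HuD. It was at 1.58, 1.505 and 2.02 CPM in wild type and at 0.2797, 0.845, 0.402, 0.216 and 0.575 CPM in the adenomas, each of which lay below each wild-type library (log2 fold change -1.86 ± 0.39, adjusted p = 0.00388). Elavl3, which encodes the related HuC, was at 0.407, 0.613 and 0.928 CPM in wild type and at 0.233, 0.845, 0.179, 0.1297 and 0.169 CPM in the adenomas. Adenomas 1, 3, 4 and 5 were below wild type, but adenoma 2 was above 2 of the 3 wild-type libraries, and the difference did not pass (log2 fold change -1.08 ± 0.62, adjusted p = 0.167). Prph (ENSMUSG00000023484, chromosome 15, 99055174 to 99058978, plus strand) encodes peripherin, the intermediate filament of peripheral neurons. It was at 5.91, 5.35 and 3.71 CPM in wild type and at 1.398, 2.16, 2.1, 0.951 and 2.13 CPM in the adenomas, with no overlap (log2 fold change -1.51 ± 0.29, adjusted p = 0.00253). Both calls held with any 1 library left out, at adjusted p of at most 0.0208 for Elavl4 and 0.0138 for Prph.

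Nefl (ENSMUSG00000022055, chromosome 14, 68083863 to 68089095, plus strand), the light neurofilament chain, moved the other way from peripherin. It was at 0.407, 0.279 and 0.273 CPM in wild type and at 1.68, 0.376, 2.502, 1.73 and 1.02 CPM in the adenomas. Adenoma 2 lay within the wild-type range and the other adenomas above it (log2 fold change 2.16 ± 0.60, adjusted p = 0.0136). This call rested on 18 wild-type counts in all and ended when wild type 3 was dropped (adjusted p = 0.05204) and with limma-voom (adjusted p = 0.0592). Nefm, the medium chain, had 13 wild-type and 8 adenoma counts, with 0 in adenoma 1, which allows up to 0.140 CPM. Exons of Nefl and Nefm overlap on opposite strands in the annotation. The library kit loses strand, so reads in the overlap cannot be assigned to either gene by strand. How counting treated such reads is not stated, which leaves their reads possibly mixed. In all, 13 members have an exon that overlaps another annotated gene, 10 of them on the opposite strand, Penk, Uchl1, Nos1, Hand2, Gfra1, Phox2a and Ncam1 included. The other 3 pan-neuronal markers did not pass in either direction. Tubb3, the neuronal beta-tubulin, was at 4.12, 4.12 and 2.89 CPM in wild type and at 6.25, 4.13, 6.08, 3.37 and 4.401 CPM in the adenomas (log2 fold change 0.38 ± 0.25, adjusted p = 0.217). Uchl1, which encodes the neuronal ubiquitin hydrolase PGP9.5, was at 3.26, 2.51 and 2.29 CPM and at 2.52, 2.301, 3.75, 2.59 and 3.22 CPM (log2 fold change 0.10 ± 0.23, adjusted p = 0.723). Its value turned to -0.71 (adjusted p = 0.0393) under scaling by pan-epithelial genes, close to the -0.75 of all genes. Stmn2, a microtubule regulator of growing axons, was at 2.34, 2.73 and 1.69 CPM and at 1.72, 2.11, 1.88, 0.778 and 3.32 CPM (log2 fold change -0.19 ± 0.40, adjusted p = 0.696).

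Both members of the synaptic release machinery fell, where 27.8% of all genes were called lower. Snap25 (ENSMUSG00000027273, chromosome 2, 136713453 to 136782428, plus strand), a SNARE protein of vesicle fusion that endocrine cells of the gut also make, was at 4.38, 4.57 and 4.36 CPM in wild type and at 2.004, 2.86, 3.13, 1.95 and 2.47 CPM in the adenomas. The wild-type values were tight and all adenomas were lower (log2 fold change -0.84 ± 0.20, adjusted p = 0.00683, at most 0.0271 with 1 library left out). Syt1 (ENSMUSG00000035864, chromosome 10, 108497650 to 109010982, minus strand), the calcium sensor of release, was at 4.12, 3.901 and 3.87 CPM in wild type and at 1.17, 3.19, 1.34, 0.476 and 0.779 CPM in the adenomas. Adenoma 2 came nearest to wild type and adenoma 4 was lowest, without overlap. Its log2 fold change was -1.52 ± 0.50 (adjusted p = 0.0284). Leaving out any of the wild-type libraries or adenoma 1, 3 or 5 ended the Syt1 call, with adjusted p of up to 0.0752.

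Transmitter and peptide genes differed from each other. Nmu (ENSMUSG00000029236, chromosome 5, 76333495 to 76363788, minus strand), the peptide neuromedin U that enteric neurons use to signal to innate lymphoid cells, showed the largest fall of all members. It was at 0.815, 1.23 and 0.546 CPM in wild type and at 0.0932, 0.0939, 0.0894, 0.1297 and 0 CPM in the adenomas, from 48 and 9 counts. Adenoma 5 had 0 counts, which allows up to 0.102 CPM. The log2 fold change was -3.38 ± 0.56 (adjusted p = 0.001098, at most 0.00696 with 1 library left out). Exons of Nmu overlap those of a transcript on the opposite strand. Calb2 (ENSMUSG00000003657, chromosome 8, 110137502 to 110168210, minus strand) encodes calretinin, a calcium-binding protein of excitatory enteric neurons. It was at 3.77, 3.51 and 3.22 CPM in wild type and at 0.559, 1.17, 1.12, 0.389 and 0.542 CPM in the adenomas, with the groups well apart (log2 fold change -2.21 ± 0.35, adjusted p = 0.000888).

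Vip (ENSMUSG00000019772, chromosome 10, 5639218 to 5647617, plus strand), the peptide of inhibitory motor and secretomotor neurons, was among the more abundant members. It stood at 22.7, 22.96 and 24.1 CPM in wild type and at 22.3, 12.1, 17.4, 10.03 and 13.5 CPM in the adenomas. Adenoma 1 was just below the lowest wild-type value and adenoma 4 was the lowest (log2 fold change -0.63 ± 0.23, adjusted p = 0.0451). Vip no longer passed when any 1 wild-type library or adenoma 2, 4 or 5 was dropped, with adjusted p of up to 0.118. With the sex pattern as a covariate the log2 fold change was -0.06 (adjusted p = 0.882). Nos1, the nitric oxide synthase of inhibitory neurons, was at 2.29, 3.51 and 2.13 CPM in wild type and at 1.54, 4.37, 1.698, 0.692 and 1.46 CPM in the adenomas. Adenoma 2 was above all wild-type libraries and the other adenomas were below them (log2 fold change -0.44 ± 0.51, adjusted p = 0.476). Without adenoma 2 the value was -0.98 with an adjusted p of 0.0207.

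Penk (ENSMUSG00000045573, chromosome 4, 4133531 to 4138819, minus strand), the precursor of the enkephalins, which stromal and immune cells can also express, was the peptide gene that rose. It was at 0.968, 1.34 and 0.6002 CPM in wild type and at 3.31, 3.099, 2.86, 1.86 and 3.15 CPM in the adenomas, with no overlap (log2 fold change 1.56 ± 0.31, adjusted p = 0.00282). Under pan-epithelial scaling it was at 0.78 (adjusted p = 0.115), where the median of all genes was -0.75. Gal, which encodes galanin, was at 0.917, 0.669 and 0.546 CPM and at 0.792, 0.376, 0.581, 0.346 and 1.49 CPM, with adenoma 5 highest (log2 fold change 0.04 ± 0.51, adjusted p = 0.955). Chat makes acetylcholine in neurons and in tuft cells and was below the filter, with 41 wild-type and 29 adenoma counts. It was at 0.764, 0.502 and 0.928 CPM in wild type and at 0.419, 0.235, 0.179, 0.216 and 0.203 CPM in the adenomas, all of them below wild type. Without the filter on low counts its log2 fold change was -1.47 (adjusted p = 0.0139), and that of Nefm was -1.62 (adjusted p = 0.128).

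Of the GDNF family receptors and the transcription factors, Ret rose and the others were not called. Ret (ENSMUSG00000030110, chromosome 6, 118151745 to 118197718, minus strand), the signalling receptor, was at 7.69, 9.42 and 8.62 CPM in wild type and at 13.5, 21.4, 12.8, 19.2 and 21.9 CPM in the adenomas. Each adenoma exceeded each wild-type library (log2 fold change 1.05 ± 0.21, adjusted p = 0.00301, at most 0.01605 with 1 library left out). Its coreceptor Gfra1 was at 3.11, 2.68 and 1.42 CPM and at 2.24, 1.36, 2.55, 3.03 and 5.08 CPM, overlapping (log2 fold change 0.25 ± 0.42, adjusted p = 0.626). Gfra2, the coreceptor for neurturin, was at 2.19, 1.23 and 0.982 CPM and at 0.839, 1.78, 1.83, 1.34 and 1.86 CPM (log2 fold change 0.06 ± 0.35, adjusted p = 0.888). The signs of Gfra1 and Gfra2, neither of which was called, turned under pan-epithelial scaling, to -0.56 and -0.69. The median of all genes was -0.75 there. Hand2, a factor of enteric neuron differentiation that gut mesenchyme also uses, was at 2.902, 2.95 and 2.67 CPM and at 1.35, 2.58, 2.95, 2.38 and 5.25 CPM, with the adenomas on both sides of wild type (log2 fold change 0.04 ± 0.38, adjusted p = 0.938). Phox2a, a homeodomain factor of autonomic neurons, had 13 wild-type and 24 adenoma counts, at 0.255, 0.111 and 0.327 CPM against 0.1398, 0.188, 0.357, 0.216 and 0.135 CPM.

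Both neural adhesion members fell modestly, where 27.8% of all genes were called lower. L1cam (ENSMUSG00000031391, chromosome X, 73853778 to 73896105, minus strand), which guides axons and crest cell migration, was at 35.8, 46.2 and 39.4 CPM in wild type and at 23.6, 34.9, 26.2, 20.2 and 20.4 CPM in the adenomas. Adenoma 2 came closest to wild type, yet the groups did not overlap (log2 fold change -0.69 ± 0.19, adjusted p = 0.0118). Dropping wild type 2 ended this call, at an adjusted p of 0.05502. Ncam1 (ENSMUSG00000039542, chromosome 9, 49502136 to 49798925, minus strand) is made by neurons and glia and also by some muscle and stromal cells. It was at 15.6, 18.8 and 15.8 CPM in wild type and at 8.02, 16.5, 11.1, 7.22 and 8.497 CPM in the adenomas, where adenoma 2 lay inside the wild-type range (log2 fold change -0.71 ± 0.26, adjusted p = 0.0427). Leaving out any library other than adenoma 2 ended the Ncam1 call, with adjusted p of up to 0.138.

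Adenomas were not alike in these genes. Over the 30 members in the table, adenoma 4 held the lowest value among the adenomas for 15 and the highest for 2, and adenoma 2 held the highest for 10 and the lowest for 7. Adenoma 2 was the highest for Elavl3, Elavl4, Prph, Nefm, Syt1, Nos1, Calb2, L1cam, Ncam1 and Cdh19 and the lowest for Uchl1, Nefl, Gfra1, S100b, Gfap, Ednrb and Foxd3. The mean log2 CPM over the neuronal members, taken from the wild-type mean, was -0.86 in adenoma 4 and -0.28 in adenoma 2, and over the glial members it was -1.05 and -1.30.

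Markers of the muscle wall and of gut endocrine cells moved in the same direction as the members that fell. Of 15 smooth muscle genes, 11 fell and all 15 had log2 fold changes below 0, with a median log2 fold change of -0.98, and their summed level ran from 1411 to 2385 CPM in wild type and from 624 to 1272 CPM in adenoma. The share of smooth muscle genes called lower was 73.3%, against 27.8% of all genes. Myh11, the smooth muscle myosin, was at 699, 777 and 422 CPM in wild type and at 141, 295, 244, 103 and 224 CPM in the adenomas (log2 fold change -1.65 ± 0.34, adjusted p = 0.00367). Pcp4 fell by 3.33 on the log2 scale, Synpo2 by 1.59 and Mylk by 1.27, while Acta2 and Tagln, which fibroblasts also express, did not pass, at -0.40 and -0.26. Adenoma 4 had the lowest mean of the smooth muscle list among the adenomas and adenoma 2 the highest, at -1.74 and -0.83 from the wild-type mean. Of 16 enteroendocrine genes, 11 fell and 1 rose, with a median of -1.59 and a summed level of 283 to 395 CPM in wild type and 85.2 to 159 CPM in adenoma. Here 68.8% were lower and 6.25% higher, against 27.8% and 30.3% of all genes. Pax6, Nts, Scgn and Neurod1 fell by 1.98, 4.00, 1.78 and 2.16, and Pyy was the gene that rose, at 23.1 CPM in adenoma 2 and 1.31 to 4.60 CPM in the other adenomas, a call lost without any 1 wild-type library or adenoma 4 or 5 (adjusted p of up to 0.133). The part of either cell type in the members' differences was not tested.

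Stromal markers moved the other way under TMM. Of 7 fibroblast genes, 5 rose and Fbln1 fell, with a summed level of 1286 to 1600 CPM in wild type and 2737 to 3420 CPM in adenoma. The share higher was 71.4% for the fibroblast genes and 71.4% for the endothelial genes, against 30.3% of all genes. Of 7 endothelial genes, 5 rose and 2 did not pass. Under pan-epithelial scaling their median log2 fold change went from 0.48 to -0.34, and that of the fibroblast genes from 1.04 to 0.27. The median of all genes went from 0.04 to -0.75, so both lists stayed above it. Among 6 markers of interstitial cells of Cajal, the pacemakers of gut muscle, Ano1 rose by 2.48 ± 0.22 on the log2 scale, Etv1 and Slc8a3 fell by 1.53 and 1.72, and Kit, at 0.33 ± 0.15, did not pass (adjusted p = 0.0955). These shares were 16.7% higher and 33.3% lower, against 30.3% and 27.8% of all genes. The summed level of the 6 ran from 43.9 to 49.4 CPM in wild type and from 113 to 183 CPM in adenoma. Of 10 tuft cell genes 8 were tested, of which Avil rose (12.5%, against 30.3% of all genes) and 3 fell (37.5%, against 27.8%). The summed level of the 10 was 75.2 to 99.6 CPM in wild type and higher in adenoma, at 154 to 360 CPM. Of 5 mesothelial genes 2 were tested, and Msln rose, though not when wild type 3 was dropped (adjusted p = 0.0789), while Upk3b did not pass. Among melanocyte genes Tyr had 0 counts in all libraries, and Dct had 10 counts over wild type and 123 over the adenomas. The pancreatic islet genes Ins1 and Ins2 also had 0 counts everywhere.

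**Figure D3:**
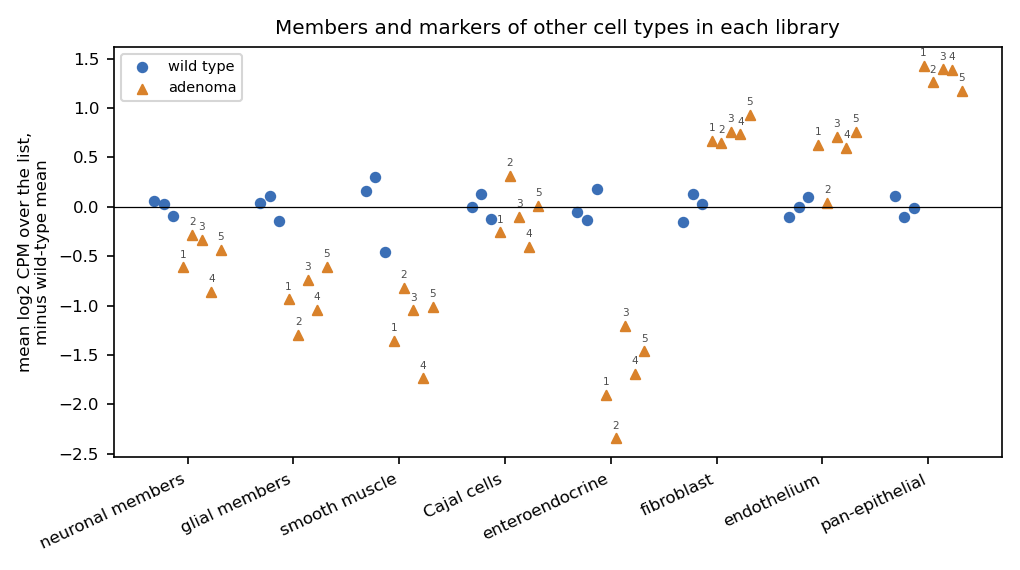
Mean log2 CPM over each list of genes in each library, given as the difference from the wild-type mean, with adenomas numbered. Neuronal members, glial members, smooth muscle and enteroendocrine genes lie below wild type in all 5 adenomas, and adenoma 4 is lowest for the neuronal members (-0.86) and for smooth muscle (-1.74), while fibroblast and pan-epithelial genes lie above.

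Other genes of the enteric nervous system were read from lists that hold none of the members. Of 50 further neuronal genes, 40 were tested, and 19 fell and 3 rose, with a median log2 fold change of -0.77. Thus 47.5% were lower and 7.5% higher, against 27.8% and 30.3% of all genes. Under pan-epithelial scaling 25 of the 40 were lower, where 56.6% of all genes were, and the median was -1.57 against -0.75. Scn3a, a voltage-gated sodium channel, was at 6.01, 6.58 and 8.24 CPM in wild type and at 1.68, 1.83, 1.65, 1.95 and 2.2 CPM in the adenomas and fell by 1.89. Slc18a2, which loads monoamines into vesicles, and Scg2, a granule protein, fell by 1.15 and 1.82, though both are also made by enteroendocrine cells. Stx1a, a syntaxin of the same SNARE complex as SNAP25, rose from 2.65, 2.95 and 3.11 CPM in wild type to 12.6, 20.3, 15.6, 15.3 and 15.5 CPM in the adenomas (log2 fold change 2.45 ± 0.18, adjusted p = 2.44e-05). Its direction was thus opposite to that of Snap25. Npy, a peptide of secretomotor neurons that was named after its values were seen, rose from 1.94, 1.17 and 2.401 CPM to 10.3, 8.73, 8.89, 8.604 and 25.4 CPM, with adenoma 5 highest.

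Of 24 further glial genes, 20 were tested, and 10 fell and 5 rose, with a median of -0.70. Those shares were 50% lower and 25% higher, where all genes had 27.8% and 30.3%. With pan-epithelial scaling, 14 of the 20 were lower, against 56.6% of all genes, and the median was -1.51 against -0.75. The potassium channels Kcna1 and Kcna2 had the largest falls. Kcna1 was at 4.33, 5.02 and 2.46 CPM in wild type and at 0.2797, 0.4695, 0.313, 0.0865 and 0.508 CPM in the adenomas (log2 fold change -3.53 ± 0.43, adjusted p = 0.0002301). Kcna2 was at 2.39, 2.51 and 2.13 CPM and at 0.233, 0.282, 0.357, 0.1297 and 0.643 CPM (log2 fold change -2.77 ± 0.39, adjusted p = 0.0004997). Sox6, a transcription factor that other cells of the gut wall also use, fell by 1.74. Mal, a myelin and lymphocyte proteolipid that epithelial cells also make, rose from 1.99, 1.06 and 1.04 CPM to 39.01, 32.7, 32.5, 35.97 and 41.2 CPM, a log2 fold change of 4.72 ± 0.25.

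Signals that neurons and glia receive went both ways, at shares near those of all genes. Of 18 ligands and receptors of the GDNF, endothelin and neurotrophin systems, 15 were tested. Among these, 5 rose and 3 fell, with a median log2 fold change of 0.25. Under pan-epithelial scaling the median was -0.52, against -0.75 for all genes. Of those tested, 33.3% were higher and 20% lower, against 30.3% and 27.8% of all genes. Edn3, the ligand of EDNRB, was at 17.3, 20.2 and 20.1 CPM in wild type and at 7.04, 1.93, 6.75, 4.799 and 3.08 CPM in the adenomas, all of them below wild type (log2 fold change -2.02 ± 0.37, adjusted p = 0.001999). Edn1, another endothelin, rose from 1.94, 1.73 and 1.36 CPM to 6.48, 14.5, 7.15, 6.36 and 5.59 CPM. Bdnf, a neurotrophin, had 7 counts over wild type and 505 over the adenomas, where it reached 4.33, 3.29, 4.96, 3.68 and 4.94 CPM (log2 fold change 5.03 ± 0.37, adjusted p = 2.75e-05). Nrg1, a ligand of glial ERBB3, rose by 1.57. Gdnf and neurturin (Nrtn), named after their values were seen as the ligands of the receptors above, were at -0.55 (adjusted p = 0.105) and 1.28 (adjusted p = 0.00853).

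Most calls among receptors and effectors for the transmitters were lower. Of 18 such genes, 17 were tested, and 9 fell and Chrm3 rose, with a median of -0.98. The shares were 52.9% lower and 5.88% higher, against 27.8% and 30.3% of all genes. When scaled by pan-epithelial genes, 11 of the 17 were lower, against 56.6% of all genes, and the median was -1.75 against -0.75. Vipr1, the VIP receptor of epithelium, was at 389.9, 329.6 and 348 CPM in wild type and at 113, 119.6, 135, 97.8 and 78.2 CPM in the adenomas (log2 fold change -1.71 ± 0.17, adjusted p = 8.61e-05). Oprm1 and Galr1, receptors for enkephalins and galanin, fell by 2.75 and 2.18, from 40 and 53 wild-type counts. Gucy1a1, a subunit of the nitric oxide sensor guanylyl cyclase, fell by 0.98. Nmur2, a neuromedin U receptor named after its values were seen, was at 1.73, 2.397 and 2.13 CPM in wild type and at 0.513, 0.329, 0.894, 0.476 and 0.4401 CPM in the adenomas (log2 fold change -1.97 ± 0.31, adjusted p = 0.000887), whereas Nmur1 was at -0.07 (adjusted p = 0.841). The rise of the muscarinic receptor Chrm3 (log2 fold change 0.95 ± 0.33, adjusted p = 0.0331) was lost without any 1 wild-type library or adenoma 5, at adjusted p of up to 0.105.

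**Figure D4:**
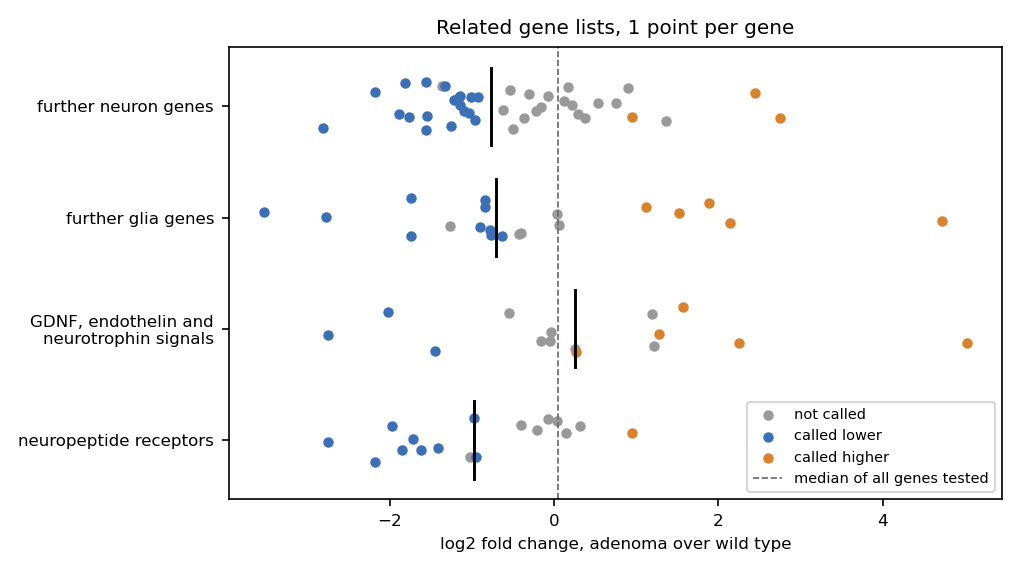
Log2 fold change of adenoma over wild type for each tested gene of 4 related lists, with 1 point per gene, black bars at each list's median and the dashed line at the median of all genes tested (0.04). Medians are -0.77 for further neuron genes, -0.70 for further glia genes, 0.25 for signals and -0.98 for receptors, and Bdnf and Mal lie farthest to the right.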

How the data were processed

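The authors deposited raw counts per gene for 8 mouse libraries. Per the labels' protocols, a Qiagen RNeasy kit gave the RNA and a TruSeq RNA kit, which loses strand, the libraries, read as short paired ends. The tools named in the submitters' processing notes are FastQC, TopHat2 and HTSeq, with GRCm38 as build. Versions, annotation and strand setting were not given in sources used here. All value columns matched a library by name. Every pair of libraries within a group differed by more than sampling noise (chi-square per degree of freedom of at least 20.1).

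The deposited counts went into edgeR 4.0.16 (R 4.3.3), using filterByExpr by group, TMM, robust quasi-likelihood fits, Benjamini-Hochberg adjustment at 0.05 over 18345 genes, and glmTreat at a log2 fold change of 1. The SE is the size of the log2 fold change divided by the root of F. Alternatives included DESeq2 1.42.0 and limma 3.58.1. On simulated counts for this comparison (18021 genes tested), 41% of genes changed by a factor of 2 and 84% of those changed by 4 were recovered. The simulation gave 128 calls, far fewer than the data. Its changed genes were drawn above a count limit that some members do not reach. The limit for 0 counts is 3 counts, for counting error only. Members, lists and alternatives were chosen with earlier results of these data known. Genes named were all members and, of each other list, the first 4 genes by adjusted p and the first gene of the rarer direction, and part of these are named. Symbols and positions came from GENCODE M21 and promoters from RefSeq GRCm38.p6. Results for some genes are not reported here.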

Additional observations from a re-analysis of the deposited data

Results flagged for a closer look

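Within the 5 adenomas, 3 of the 30 members had a library set far from the rest, by a gap to its nearest neighbour of more than 0.71 of the adenoma range. Chance flags about 1 in 20 groups. For Elavl3 this was adenoma 2, at 0.845 CPM where the others ran from 0.130 to 0.233 CPM. For Nos1 it was again adenoma 2, at 4.37 CPM where the others ran from 0.692 to 1.70 CPM. Chat had 0.419 CPM in adenoma 1 and 0.179 to 0.235 CPM in the other adenomas. This flag rested on 9 counts against 4 to 6, so counting error may account for it. Both neuronal genes that stood out in adenoma 2 did so in the library that also held Hoxb13, and the part of gut region in these values was not tested.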

How the results depend on the processing

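Members had 18 to 20 alternatives each, since the stricter filter tested few of them. Of these values, 413 kept their direction and their side of the threshold, 36 of members called in neither fit changed sign, 45 lost the call, 3 gained one and 1 turned. That 1 was Uchl1, at -0.71 under pan-epithelial scaling. Pan-epithelial scaling gave 1112 higher and 10381 lower genes in all, against 5558 and 5099. Among the lists, 1 member, 2 further neuronal genes, 1 further glial gene, 3 signals and 0 receptors were higher. Lower were 14 members, 25 further neuronal genes, 14 further glial genes, 6 signals and 11 receptors. For the other fits of this paragraph and the replicate block, list counts are named only where they moved by more than a factor of 1.5 or to 0. With the sex pattern as a covariate, 3074 genes were higher and 2298 lower, with 1 member, 1 further glial gene, 3 signals and 0 receptors higher, and 5 members, 10 further neuronal and 3 further glial genes lower. The stricter filter (5 CPM in 3 libraries) tested 5 members and left 1 member, 2 further glial genes, 3 signals and 0 receptors higher, and 3 members, 5 further neuronal genes, 4 further glial genes, 1 signal and 5 receptors lower, since fewer genes were tested. Without wild type 1 and adenoma 5, 2 further glial genes and 0 receptors were higher, and with limma-voom 3 and 0. The cause of these shifts was not tested.

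With a replicate block, 3345 genes were higher and 3204 lower, with 3 further glial genes and 0 receptors higher, and 7 members and 10 further neuronal genes lower. Deviations of libraries with the same number correlated at -0.018, 0.051 and 0.061, so the numbers do not pair them.

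With 1 library left out, 4529 to 6184 genes were higher and 4135 to 6092 lower. Members ran from 2 to 3 higher and 9 to 13 lower, further neuronal genes from 2 to 4 and 14 to 23, further glial genes from 3 to 5 and 8 to 12, signals from 4 to 7 and 3 to 4, and receptors from 0 to 1 and 8 to 10. At this depth members under 1 CPM rest on few counts a library. Of genes simulated to change by a factor of 2, 41% were recovered. That share does not carry over to the members, since far fewer genes changed in the simulation and low counts were left out. How many members that change by this size were missed is therefore not known.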

Other observations

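Levels per kilobase of exon, in CPM per kb of the annotated exonic length, set the members in an order that differs from that of their changes. In wild type the highest means were 11.2 for Ednrb, 6.83 for Vip, 5.51 for L1cam, 2.496 for Prph, 2.01 for Calb2 and 1.99 for Tubb3. The glial genes that fell were low, at 0.468 for Cdh19, 0.381 for Sox10 and 0.284 for Gfap. In adenoma Ednrb, Vip and L1cam were still the highest, at 7.75, 4.43 and 3.41, and Ret and Tubb3 followed at 2.63 and 2.59, with Prph at 0.875 and Calb2 at 0.434. Annotated exonic length joins all transcripts of a gene, so a gene with long rare transcripts appears lower.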
